A study of Mus musculus with 8 samples.

Results

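The polyamine genes described here are 10 genes that make, break down and regulate putrescine, spermidine and spermine: Odc1, Srm, Sms, Amd1, Sat1, Smox, Paox, Oaz1, Oaz2 and Azin1. They were taken by symbol from a table of 56884 annotated mouse genes, and each symbol matched 1 row. All 10 passed the filter on low counts that left 13707 genes for testing, with 346 to 35948 counts per member and library. The libraries came from Lacun3, a mouse lung adenocarcinoma cell line, grown untreated in serum-containing medium and harvested in logarithmic growth. The 4 parental libraries are labelled STK11 WT. The 4 knockout libraries are labelled STK11 KO and came from cells edited at Stk11 with CRISPR. Stk11 encodes LKB1, the kinase that activates AMPK and related kinases. The labels name 1 edited line and do not say whether it was a clone, so each comparison is between these lines of cells.

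Polyamines are small positively charged molecules that bind RNA and DNA and are needed for growth and protein synthesis. Ornithine decarboxylase (ODC, from Odc1) makes putrescine from ornithine. Spermidine synthase (Srm) and spermine synthase (Sms) then add aminopropyl groups, which come from S-adenosylmethionine after its decarboxylation by AMD1. On the way back, the acetyltransferase SSAT (Sat1) marks spermidine and spermine for export or for oxidation by PAOX, while spermine oxidase (Smox) turns spermine directly into spermidine and releases hydrogen peroxide. Antizymes (Oaz1, Oaz2) bind ODC and carry it to the proteasome when polyamines are plentiful, and the antizyme inhibitor AZIN1, a relative of ODC without its activity, releases ODC from antizyme. Much of this control acts on translation and protein turnover, which counts of mRNA do not measure.

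The antizyme mRNAs are read through a shift of reading frame at the stop codon of their first open reading frame. The site is shown because it is the part of these genes on which polyamines act, and because it sets a limit on what the Oaz1 and Oaz2 counts can say. In GENCODE M21 transcripts, with the stop codon in capitals and the strand that of the mRNA, the 36 bases around it read as follows and are alike at 33 positions.
Oaz1: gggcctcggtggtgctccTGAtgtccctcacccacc
Oaz2: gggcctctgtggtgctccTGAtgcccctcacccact

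The 250 bases before the annotated start are shown for the 3 members that rose by more than 2-fold and for Amd1, one of the members that fell. They are RefSeq sequences of build GRCm38.p6, an older build than the GRCm39 of the counts, given 5′ to 3′ on the gene's strand. Capitals mark the matches to the GC box GGGCGG and the core cAMP-response motif TGACG on either strand, the only searched motifs found in these 4 sequences.
Odc1 (chr12:17544623-17544872, plus strand): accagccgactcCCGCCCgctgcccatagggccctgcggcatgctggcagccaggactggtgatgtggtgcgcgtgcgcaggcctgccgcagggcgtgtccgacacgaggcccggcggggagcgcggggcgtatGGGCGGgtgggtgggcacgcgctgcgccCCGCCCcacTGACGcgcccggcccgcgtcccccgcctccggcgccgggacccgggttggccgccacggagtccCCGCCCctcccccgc
Smox (chr2:131491612-131491861, plus strand): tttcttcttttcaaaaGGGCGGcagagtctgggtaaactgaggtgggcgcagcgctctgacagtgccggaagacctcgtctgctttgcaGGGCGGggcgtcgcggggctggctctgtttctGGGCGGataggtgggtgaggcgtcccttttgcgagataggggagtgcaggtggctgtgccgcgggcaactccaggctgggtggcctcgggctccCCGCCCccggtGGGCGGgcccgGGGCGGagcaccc
Sat1 (chrX:155216450-155216699, minus strand): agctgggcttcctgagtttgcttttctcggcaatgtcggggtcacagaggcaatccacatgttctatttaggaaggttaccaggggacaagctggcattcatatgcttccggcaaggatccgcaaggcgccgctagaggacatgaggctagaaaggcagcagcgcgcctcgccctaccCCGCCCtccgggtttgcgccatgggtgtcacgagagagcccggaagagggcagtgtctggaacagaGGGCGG
Amd1 (chr10:40302189-40302438, minus strand): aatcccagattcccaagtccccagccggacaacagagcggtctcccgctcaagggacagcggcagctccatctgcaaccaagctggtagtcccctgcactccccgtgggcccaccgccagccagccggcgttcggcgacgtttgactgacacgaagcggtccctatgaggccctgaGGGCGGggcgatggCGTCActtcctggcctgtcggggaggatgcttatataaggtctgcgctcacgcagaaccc

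Of the 10 members, 8 had a promoter in the table, and 2 of these had more than 1 annotated start. Srm and Azin1 had none and were not searched. The GC box was present before at least 1 start of 7 members, all but Oaz1, against 32.7% of the 32851 promoters in the table. The core cAMP-response motif TGACG was found for Odc1, Amd1 and Oaz1, against 17.8% of promoters. Among the 8 members searched, the E-box CACGTG, the motif of MYC and MAX, was found for Sms alone, before 1 of its 2 starts (6.02% of promoters). Bases after the start were not searched. The full cAMP-response element TGACGTCA, which contains TGACG (1.55% of promoters), and the C/EBP-ATF element TGATGNAA (3.45%) matched no member in this window. The share of G and C was 80% in the Odc1 window, 68% for Smox, 64.4% for Amd1 and 59.6% for Sat1. It was 61.6% and 64% at the 2 starts of Paox, 47.2% and 75.2% at those of Sms, and 58% for Oaz1 and Oaz2, where the median promoter was at 52.4%. Matches are descriptions of letters and were not tied to binding.

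Library totals were 18837263 to 21101904 counts in parental and 21441601 to 25715008 in knockout libraries, so 1 count was worth 0.0388 to 0.0515 CPM (the count scaled for depth, here with TMM library sizes). Stk11 was at 64.7 to 68.4 CPM in parental and 33.5 to 35.4 CPM in knockout libraries, a fall of 1.91-fold (edgeR adjusted p = 2.03e-12). This is in the direction of the labels; neither the edit nor the protein was measured. Knockout replicate 3 stood apart from its group: the chi-square of counts per degree of freedom was 14.1 to 20.4 in its pairs and 3.25 to 9.51 in all other pairs within a group. The epithelial markers Epcam, Cdh1, Krt8, Krt18 and Krt19 were expressed, while the lung lineage markers Nkx2-1, Sftpc and Sftpb had at most 1 count in any library. In knockout cells Krt18 and Epcam were lower (edgeR adjusted p = 8.14e-07 and 0.015) and Krt19 higher (edgeR adjusted p = 0.00213). Krt8 and Cdh1 did not differ at an adjusted p under 0.05 (edgeR, 0.0874 and 0.794). Leukocyte markers summed to at most 0.324 CPM, with Adgre1 at 0, and fibroblast markers to 3.04 to 4.81 CPM in parental and 2.03 to 2.97 in knockout libraries, with Col1a2 at 0. Endothelial markers summed to 1.06 to 1.85 and 3.42 to 4.81 CPM, with Kdr at 0. Most of this sum was Cdh5, at 1.36 ± 0.327 and 4.17 ± 0.624 CPM (SD, n = 4, edgeR adjusted p = 1.89e-07). Pecam1 and Tek were at most at 0.248 CPM in any library. The part of all these markers in the results was not tested.

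Which polyamine transcripts differed when Stk11 was disrupted was asked with edgeR's quasi-likelihood test on the counts, adjusted over all 13707 genes, with "rose" and "fell" used for an adjusted p under 0.05. In the knockout cells the entry enzyme gene Odc1 and the catabolic genes Sat1 and Smox rose by more than 2-fold, the enzymes that build spermidine and spermine (Srm, Sms, Amd1) fell by 1.42-fold to 1.65-fold, and the oxidase gene Paox fell 2.02-fold. The antizyme gene Oaz1 and the inhibitor gene Azin1 rose slightly, and Oaz2 did not pass. In all, 5 members rose, where 34.4% of tested genes did, and 4 fell, where 33.6% did. Calls were common, at 68.0% of all tested genes and 74.5% of the 6634 genes with a mean level at least that of Paox, the lowest member. The 9 calls among 10 members are therefore near the background. In bulk RNA, fewer cells with a transcript and less of it per cell cannot be told apart. Changes of at least 2-fold were seen for 4 members, Odc1, Sat1, Smox and Paox, against 16.4% of tested genes. The groups did not overlap for 9 members, against 60.6% of tested genes. The median absolute log2 fold change was 0.71 for the members and 0.37 for all tested genes.

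**Figure D1:**
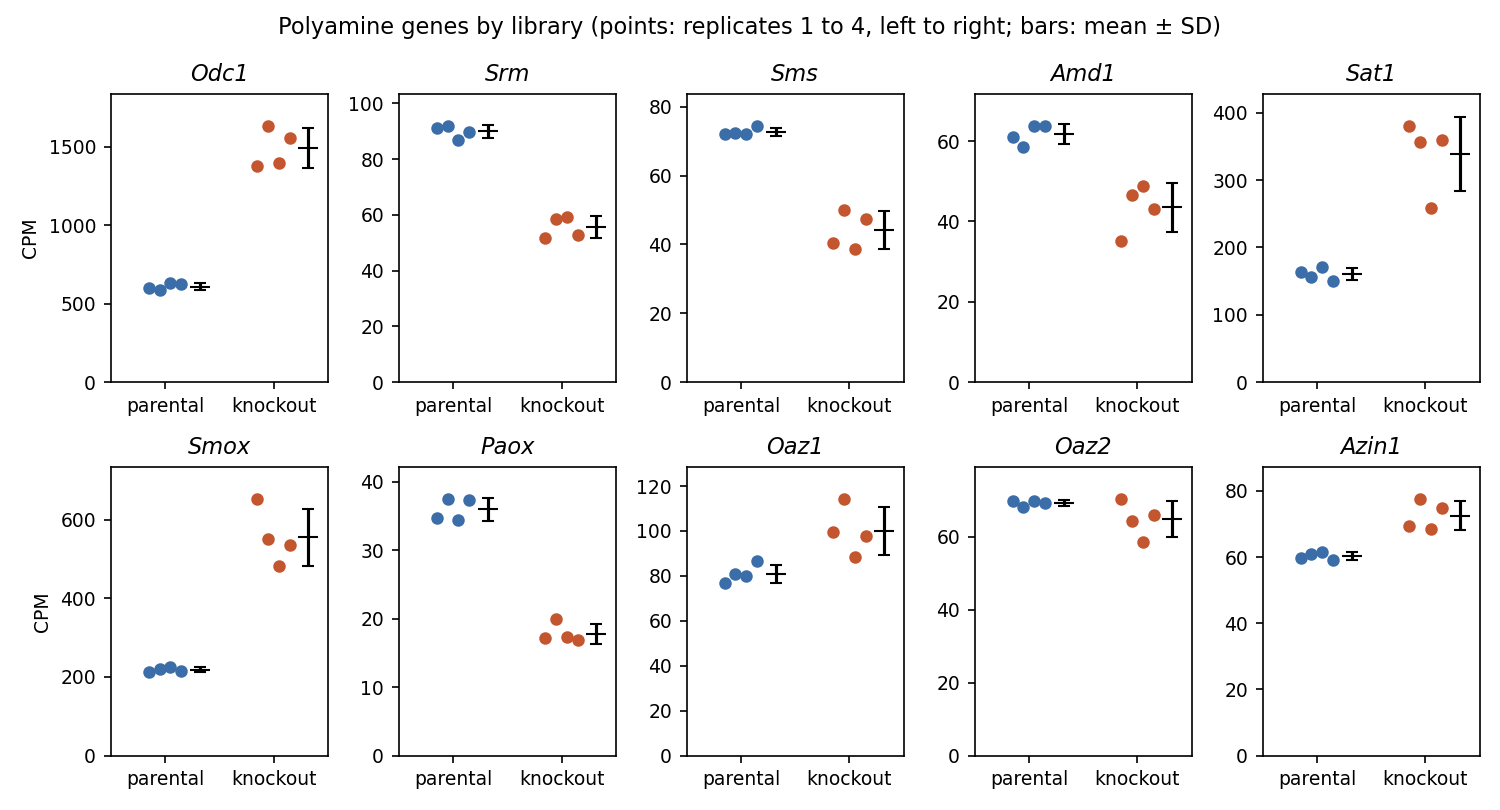
Level of each polyamine gene in CPM (vertical axes from 0, each with its own scale) in 4 parental and 4 knockout libraries; points are libraries and black bars the mean ± SD. Odc1, Sat1 and Smox lie far higher in every knockout library, Srm, Sms, Amd1 and Paox lower, and Oaz2 is the gene whose groups overlap.

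Odc1, the gene of the enzyme that commits ornithine to polyamine synthesis, was the most abundant member. The gene (ENSMUSG00000011179.9) spans bases 17594795 to 17601506 of chromosome 12, plus strand, in GRCm39, the build of all gene positions given here. Parental replicates 1 to 4 gave 599, 586, 629 and 624 CPM, and knockout replicates 1377, 1635, 1396 and 1558 CPM. Every knockout value was at least as high as 1377 CPM and every parental value at most 629 CPM. The means were 609 ± 20.1 and 1492 ± 125 CPM (SD, n = 4), a rise of 2.45-fold (95% interval 2.24 to 2.68; log2 fold change 1.29 ± 0.06, SE; edgeR adjusted p = 3.44e-14). By mean level Odc1 was at percentile 99.3 of the tested genes and by absolute log2 fold change at percentile 89.1. Of the 51-base sequences in its GENCODE M21 transcripts, the length of a read, 24% also occur in transcripts of 16 other genes, so reads may be shared or lost there. A small nucleolar RNA gene on the same strand inside Odc1, Gm22748, had 0.694 and 1.49 CPM in the parental and knockout groups.

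The aminopropyl transferase genes moved the other way. Srm, which encodes spermidine synthase (chromosome 4, 148675960 to 148679450, plus strand), was at 91.1, 92.0, 87.0 and 89.6 CPM in parental and 51.7, 58.7, 59.3 and 52.9 CPM in knockout libraries. The groups were well apart and the knockout values spread more widely. Srm fell 1.61-fold (95% interval 1.48 to 1.76; log2 fold change -0.69 ± 0.06, SE; edgeR adjusted p = 4.97e-10). Sms, which encodes spermine synthase (chromosome X, 156226851 to 156275283, minus strand), was at 72.1, 72.3, 72.0 and 74.5 CPM in parental and 40.4, 50.1, 38.7 and 47.5 CPM in knockout libraries. All knockout values lay below all parental values, with replicates 2 and 4 above replicates 1 and 3. Sms fell 1.65-fold (95% interval 1.49 to 1.82; edgeR adjusted p = 6.22e-09). Its pseudogene Sms-ps, with which it shares 17.4% of its 51-base sequences, fell as well, from 5.18 ± 0.750 to 3.80 ± 0.696 CPM (SD, n = 4; edgeR adjusted p = 0.0106), with groups that overlapped; without parental replicate 2 it did not pass (adjusted p = 0.0512).

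Amd1, whose product decarboxylates S-adenosylmethionine to supply the aminopropyl donor (chromosome 10, 40163454 to 40178184, minus strand), fell too. Its estimated fall was the smallest of these genes, but its interval overlaps those of Srm and Sms, so the order is not set. Parental libraries gave 60.9, 58.6, 63.8 and 63.6 CPM, and knockout libraries 35.2, 46.7, 48.9 and 43.1 CPM. Replicate 1 was the lowest of the knockout libraries, and no knockout value reached the parental range. The fall was 1.42-fold (95% interval 1.27 to 1.58; log2 fold change -0.50 ± 0.08, SE; edgeR adjusted p = 5.38e-06). Amd2, its near-identical copy, shares 76.5% of the 51-base sequences of Amd1 and was counted at 0.796 ± 0.184 and 0.650 ± 0.205 CPM (SD, n = 4; edgeR adjusted p = 0.414). How the authors assigned reads that match both is not known here, so the level of Amd1 is uncertain. Summed with Amd2 its log2 fold change was -0.50. Amd2 held too few counts to move this value, so the sum does not settle where shared reads went.

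Both genes of the catabolic steps that act first on spermidine and spermine rose. Sat1 encodes SSAT, the acetyltransferase that limits polyamine breakdown and export (chromosome X, 153996128 to 153999445, minus strand). It was at 164, 156, 171 and 150 CPM in parental and 381, 357, 258 and 360 CPM in knockout libraries. Knockout replicate 3 was the lowest of its group and still above every parental library. Sat1 rose 2.12-fold (95% interval 1.81 to 2.47; log2 fold change 1.08 ± 0.10, SE; edgeR adjusted p = 8.18e-07), and 2.29-fold without knockout replicate 3. Smox encodes spermine oxidase (chromosome 2, 131333416 to 131367842, plus strand). Its levels were 212, 220, 226 and 215 CPM in parental and 652, 551, 481 and 535 CPM in knockout libraries, again far apart, with replicate 1 the highest. Smox rose 2.54-fold (95% interval 2.29 to 2.81; log2 fold change 1.34 ± 0.07, SE; edgeR adjusted p = 1.5e-13). Its interval overlaps that of Odc1, so the order of these changes is not set. No 51-base sequence of Smox occurs in another gene's transcript. Tested against a change of 2-fold rather than against none (edgeR glmTreat), 2 members passed as higher, Odc1 (adjusted p = 0.000151) and Smox (adjusted p = 8.19e-05), where 4.05% of tested genes did. The count of members that passed as lower was 0, also by unadjusted p in glmTreat, where 5.81% of tested genes passed.

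Paox encodes the peroxisomal oxidase that acts on the acetylated products of SSAT, and it went in the opposite direction from Sat1. It lies on chromosome 7 from 139695712 to 139717137 (plus strand). Parental libraries gave 34.8, 37.5, 34.4 and 37.4 CPM and knockout libraries 17.1, 20.0, 17.3 and 16.9 CPM, so the 2 groups were well separated at the lowest level of any member. Paox fell 2.02-fold (95% interval 1.82 to 2.25; log2 fold change -1.01 ± 0.07, SE; edgeR adjusted p = 4.09e-11). Its first 678 bases overlap Echs1, a gene of fatty acid oxidation on the other strand, which rose from 84.0 ± 4.35 to 105 ± 11.7 CPM (SD, n = 4; edgeR adjusted p = 0.000341). Whether the authors counted with strand is not known here, so reads in the overlap may be shared between them. Of its 51-base sequences, 28.4% also occur in other genes' transcripts, most of them (25.2%) in the predicted gene Gm19680.

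**Figure D2:**
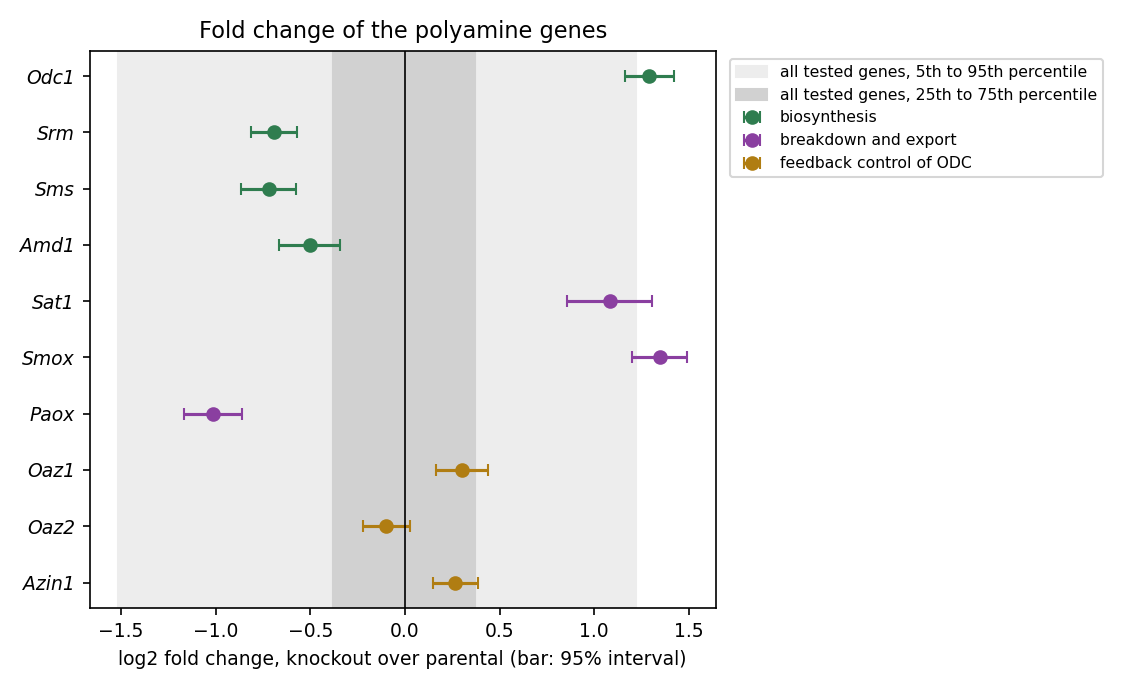
Log2 fold change of each polyamine gene, knockout over parental (horizontal axis), with its 95% interval from the edgeR fit, coloured by role; the grey bands span the middle of all 13707 tested genes. Odc1 and Smox lie beyond the 95th percentile of all genes (1.22), and the 3 genes of ODC control lie within the 25th to 75th percentile (-0.38 to 0.37).

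The genes that control ODC protein changed little. Oaz1 (chromosome 10, 80662490 to 80665124, plus strand, 695974 bases beyond the end of Stk11 on the same chromosome) was at 76.9, 80.9, 79.8 and 86.5 CPM in parental and 99.4, 114, 88.4 and 97.7 CPM in knockout libraries. The highest parental and the lowest knockout value nearly touch. Oaz1 rose 1.23-fold (95% interval 1.12 to 1.36; edgeR adjusted p = 0.000381). Its pseudogene Oaz1-ps shares 20% of its 51-base sequences and held 1.67 ± 0.230 and 1.99 ± 0.298 CPM (SD, n = 4). Oaz2 (chromosome 9, 65575283 to 65597582, plus strand) was at 69.9, 68.2, 69.8 and 69.1 CPM in parental and 70.3, 64.4, 58.4 and 66.0 CPM in knockout libraries, and the groups overlapped. Its log2 fold change was -0.10 ± 0.06 (SE; 95% interval -0.22 to 0.03; edgeR adjusted p = 0.148); it passed when scaled by library size alone (-0.18, adjusted p = 0.00709) and without knockout replicate 1 (-0.13, adjusted p = 0.0452), within a range of 0.00709 to 0.426 over all alternatives. Azin1 (chromosome 15, 38487671 to 38519510, minus strand) was at 59.7, 60.8, 61.6 and 59.0 CPM in parental and 69.5, 77.5, 68.4 and 74.7 CPM in knockout libraries, without overlap. It rose 1.20-fold (95% interval 1.11 to 1.31; edgeR adjusted p = 0.000282).

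Levels were compared between members per kilobase, using the longest protein-coding transcript of each gene. Odc1 led in both groups, at 276 ± 9.10 CPM per kb in parental and 676 ± 56.8 in knockout cells (SD, n = 4), followed by Sat1 (138 ± 7.61 and 292 ± 47.4) and Smox (94.96 ± 2.55 and 241 ± 31.1). In the knockout cells the ranges of Sat1 (222 to 328) and Smox (209 to 284 CPM per kb) overlapped, so their order there is not set. Next stood Oaz1 at 75.7 ± 3.75 and 93.3 ± 9.98 CPM per kb, ahead of Srm at 67.2 ± 1.63 and 41.6 ± 2.90. Oaz2 came after them at 37.6 ± 0.421 and 35.1 ± 2.66 CPM per kb. Sms (19.6 ± 0.328) and Amd1 (19.3 ± 0.777) did not differ beyond their spread in parental cells. In knockout cells Azin1 (14.9 ± 0.887 CPM per kb), Amd1 (13.6 ± 1.87) and Sms (11.9 ± 1.47) were close. The range of Amd1 overlapped those of Azin1 and of Sms, while all values of Azin1 lay above all values of Sms. Paox was last, at 7.74 ± 0.357 and 3.83 ± 0.310 CPM per kb. With the length of merged exons, chosen after seeing the data, Odc1 stayed first and Paox last in both groups, while Sat1 (57.7 ± 3.19), Srm (56.2 ± 1.36) and Smox (56.1 ± 1.51 CPM per kb) did not differ beyond their spread in parental cells and Oaz1 (31.7 ± 1.57) stood below Srm.

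Ratios within a library do not depend on its scaling, and are given as values without a test. ODC and its antizyme-binding relative together (Odc1 plus Azin1) were 2.47 to 2.65 times the 2 antizymes together (Oaz1 plus Oaz2) per kilobase in parental and 4.87 to 5.68 times in knockout libraries, without overlap. Most of the upper sum was Odc1 (276 and 676 CPM per kb in parental and knockout cells, against 12.4 and 14.9 for Azin1). This ratio therefore largely follows the rise of Odc1 given above. The ratio of Smox to Paox was 11.6 to 13.3 in parental and 55.8 to 77.0 in knockout libraries. With merged exon lengths its means were 7.65 and 39.4 in place of 12.3 and 63.3. Srm to Sms stayed within 3.34 to 3.54 in parental and 3.10 to 4.26 in knockout libraries with overlapping groups; knockout replicate 3 gave the highest value.

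**Figure D3:**
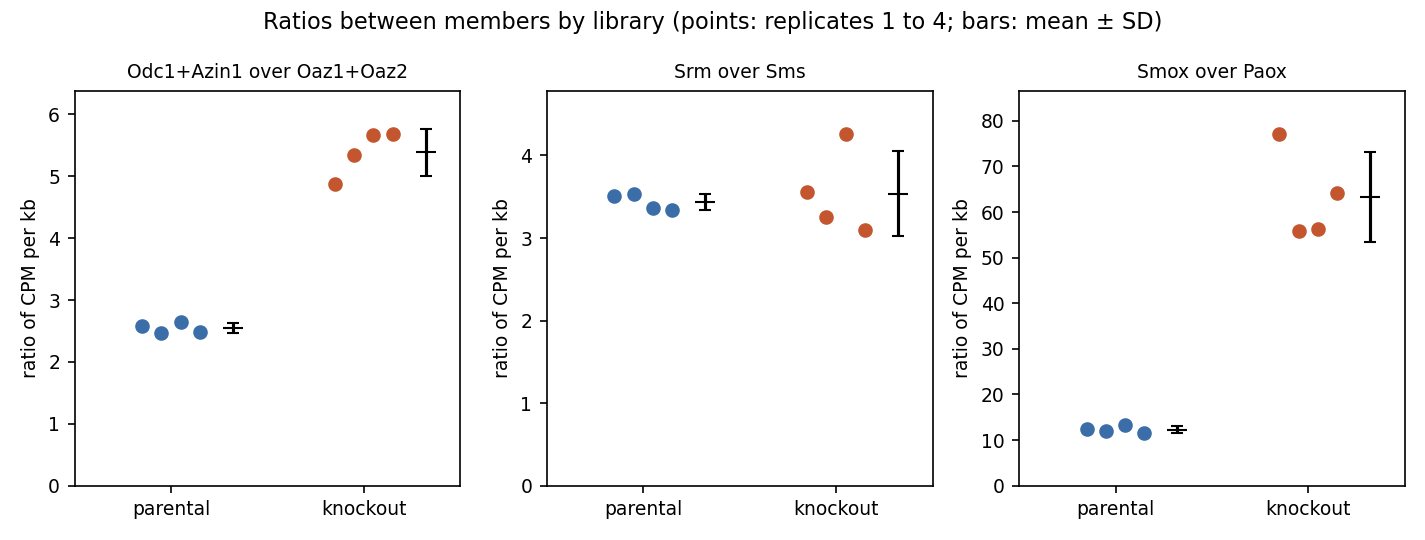
Ratios of CPM per kb within each library (vertical axes from 0) for Odc1 plus Azin1 over Oaz1 plus Oaz2, Srm over Sms, and Smox over Paox; points are libraries and black bars the mean ± SD. The outer panels show groups that do not overlap (2.47 to 2.65 against 4.87 to 5.68, and 11.6 to 13.3 against 55.8 to 77.0), the middle panel groups that do.

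Around the pathway, 52 further genes were listed by role, of which 33 had enough counts to be tested: 12 rose, 13 fell and 8 did not pass, where 34.4% of all tested genes rose and 33.6% fell. The counts of each list below are read against the same shares, and none is called particular to its list. Relatives of the members were at low levels. Azin2, another antizyme inhibitor, fell from 5.49 ± 0.267 to 3.74 ± 0.497 CPM (SD, n = 4; edgeR adjusted p = 0.00104) and Sat2, a relative of Sat1, from 4.37 ± 0.505 to 2.81 ± 0.634 CPM (edgeR adjusted p = 0.00189). Oaz3, the antizyme of testis, had 5 to 11 counts in a library and was not tested, and Satl1 had 0 counts.

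In the list for ornithine supply 4 of 6 tested genes rose and 0 fell (also 0 by unadjusted p in the edgeR test and by DESeq2), few genes to set against the 34.4% and 33.6% of all tested genes. Arg2, the mitochondrial arginase that makes ornithine, rose from 4.65 ± 0.475 to 10.9 ± 0.887 CPM (SD, n = 4; edgeR adjusted p = 2.87e-09), while Arg1 had at most 2 counts in any library. Aldh18a1, which makes the precursor of proline and ornithine from glutamate, rose from 148 ± 4.71 to 217 ± 6.77 CPM (edgeR adjusted p = 2.07e-09). The cationic amino acid transporter gene Slc7a2 had 2 parental and 81 knockout counts, a ratio of 38.2 with a 95% counting interval of 10.2 to 321. It entered the test only through its knockout counts and was not tested under a filter of 1 CPM in 4 libraries, so it had to differ once tested, and its place among the 4 that rose adds nothing to that count. In the list for S-adenosylmethionine supply and salvage of methylthioadenosine, the by-product of both aminopropyl transfers, 2 of 9 tested genes rose and 4 fell (34.4% and 33.6% of all tested genes). Mat2a, which makes S-adenosylmethionine, fell from 167 ± 7.25 to 69.2 ± 11.9 CPM (edgeR adjusted p = 8.81e-09). Mtap, the phosphorylase that opens the salvage of methylthioadenosine, fell from 527 ± 22.0 to 313 ± 11.1 CPM (edgeR adjusted p = 2.77e-11). Later in the salvage route, Apip rose from 8.28 ± 1.07 to 15.7 ± 0.864 CPM. Il4i1, an amino acid oxidase on the same list that is not itself placed in the route here, rose from 1.33 ± 0.273 to 2.63 ± 0.409 CPM.

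Transport genes went both ways, with 3 of 7 tested genes higher and 3 lower (34.4% and 33.6% of all tested genes). The lysosomal polyamine exporter gene Atp13a2 fell 1.84-fold (34.0 ± 0.949 to 18.4 ± 2.46 CPM, SD, n = 4; edgeR adjusted p = 2.79e-09) and its relative Atp13a3 1.40-fold (353 ± 11.1 to 252 ± 14.9 CPM; edgeR adjusted p = 4.63e-08). Slc3a2, the heavy chain of several amino acid transporters that has been tied to polyamine export, rose from 141 ± 4.59 to 343 ± 18.9 CPM (edgeR adjusted p = 2.82e-15), and Gpc1, a glypican tied to polyamine uptake, from 123 ± 6.10 to 265 ± 21.7 CPM (edgeR adjusted p = 2.24e-13). Spermidine is also the donor for hypusine, a modified lysine of the translation factor eIF5A. Dhps, the enzyme that transfers it, rose from 17.1 ± 0.899 to 35.9 ± 2.41 CPM (SD, n = 4; edgeR adjusted p = 2e-11) and Eif5a from 1090 ± 53.1 to 1336 ± 77.2 CPM (edgeR adjusted p = 0.000156), while Dohh, the enzyme of the last step, was at 8.97 ± 0.286 and 9.92 ± 0.637 CPM and did not pass (adjusted p = 0.192).

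Downstream of SSAT, Hdac10, a deacetylase of acetylated spermidine, fell from 10.5 ± 1.85 to 7.56 ± 1.07 CPM with groups that overlapped (SD, n = 4; edgeR adjusted p = 0.00287). Aldh9a1, an aldehyde dehydrogenase that acts on aminoaldehydes, rose from 80.1 ± 1.13 to 111 ± 8.77 CPM (edgeR adjusted p = 1.86e-07). Maob, a monoamine oxidase, fell from 1.17 ± 0.459 to 0.192 ± 0.138 CPM (SD, n = 4; edgeR adjusted p = 2.17e-05), and to 0.127 CPM without knockout replicate 3. Maob entered the test only through its parental counts and was not tested under a filter of 1 CPM in 4 libraries. Its difference was therefore close to fixed once tested, and its place among the listed genes that fell adds nothing to that count. Aoc1, the diamine oxidase gene, had 0 counts. Myc encodes a transcription factor for which Odc1 is a textbook target. Myc fell 2.84-fold, from 1007 ± 17.4 to 355 ± 12.3 CPM (SD, n = 4; edgeR adjusted p = 1.35e-16), so that Myc and Odc1 differed between the lines in opposite directions. Of the other called members, Srm, Sms, Amd1 and Paox fell like Myc, while Sat1, Smox, Oaz1 and Azin1 rose like Odc1. Whether MYC had a part in any of these differences was not tested. Max, the partner of MYC, fell from 85.4 ± 1.604 to 70.6 ± 2.88 CPM (edgeR adjusted p = 0.0001).

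**Figure D4:**
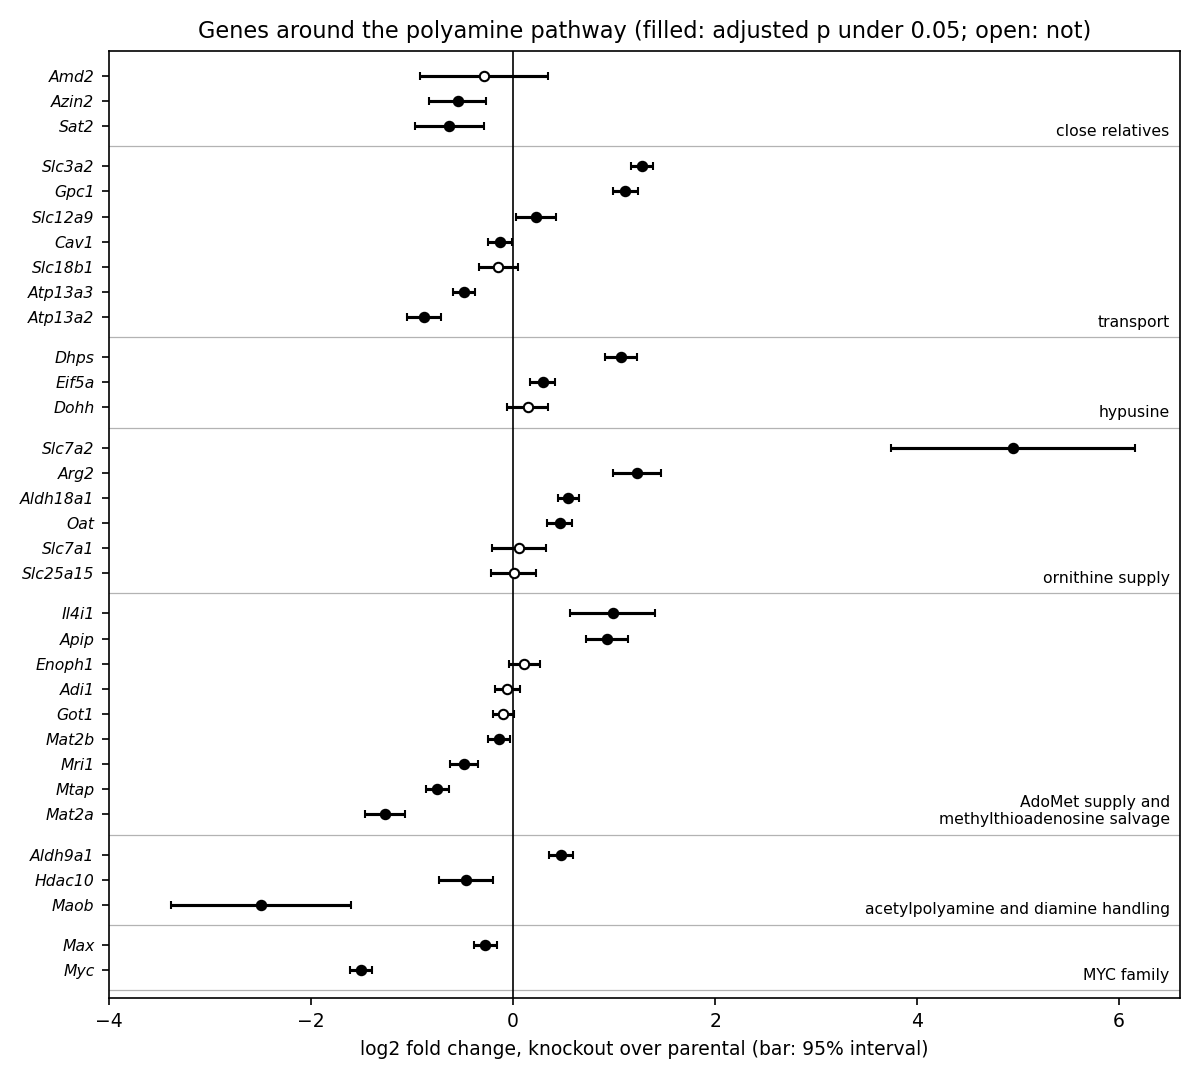
Log2 fold change, knockout over parental (horizontal axis), of the 33 tested genes listed around the polyamine pathway, with 95% intervals from the edgeR fit; filled points passed an adjusted p under 0.05. The lists hold 12 higher and 13 lower genes; Slc7a2 rests on 2 parental counts, so its fitted value depends on the prior count.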

How the data were processed

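Per the labels' protocols, stranded mRNA libraries were made from total RNA and sequenced as paired reads of 51 bases. Build GRCm39, the aligner STAR 2.7.9a, the counter featureCounts 1.6.0, FastQC 0.11.8, limma and edgeR are listed in the submitters' processing notes, with no settings. The authors deposited raw counts per gene and a second table of log2 CPM values in voom's form, used here as an alternative. The labels give each library's group and number.

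Genes passing filterByExpr were tested with edgeR 4.0.16 (R 4.3.3; TMM, estimateDisp and glmQLFit, both robust, glmQLFTest) with genotype as the only term, and p-values were adjusted by Benjamini-Hochberg over 13707 genes. The standard error is the absolute log2 fold change over the square root of F. The fit was tested on simulated data. The members, gene lists and motifs were chosen with earlier results of these data known. All 10 members are named, with Stk11, their relatives, pseudogenes and overlapping genes, and from each list at most 2 genes in each direction, taken by smallest adjusted p. The pseudogene Oaz2-ps and the overlapping genes Gm49077, Mir1982 and Mir6951 had few or no counts and are named only here. Slc7a2, Arg1, Dohh, Echs1, Cdh5, Pecam1, Tek, Slc12a9, Cav1, Mat2b and genes at 0 counts were named after their values were seen. Lengths and shared 51-base sequences came from GENCODE M21 transcripts, promoters from RefSeq. The exact interval for Slc7a2 (scipy 1.17.1) covers counting error only. Nothing says that the libraries came from separate clones, so p-values measure the spread between these cultures.

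Alternatives were other scalings and filters, DESeq2 1.42.0, limma 3.58.1, edgeR's legacy mode, a replicate block, summing near-identical copies, and leaving out each library. Chosen after seeing the data were the length of merged exons and leave-one-out means for the ratios.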

Additional observations from a re-analysis of the deposited data

Results flagged for a closer look

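In 60 groups of 4 libraries examined (the members, Stk11 and the named genes of the lists), 3 held a library far from the other 3 by Dixon's criterion at the 95% level; chance flags about 1 in 20 such groups. Parental replicate 4 had 74.5 CPM of Sms, where the other parental libraries had 72.0 to 72.3 CPM. Knockout replicate 2 had 20.0 CPM of Paox, where the other knockout libraries had 16.9 to 17.3 CPM. Parental replicate 4 had 5.36 CPM of Arg2, where the other parental libraries had 4.36 to 4.48 CPM.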

How the results depend on the processing

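The 9 called members kept their call and direction in all 19 alternatives to the test, apart from the stricter glmTreat. For members without a summed copy, the sum with copies leaves their counts unchanged and is no check on them. Oaz2, which did not pass, is described above. Tested against a log2 fold change of 1, 2 members passed as higher and 0 as lower (glmTreat; also 0 lower by unadjusted p), and of all tested genes 555 and 796, since that test asks for a larger change. Without knockout replicate 1, Odc1 (log2 fold change 1.33) changed more than Smox (1.26). With the replicate number as a block, which the labels do not tie to a shared batch, 5 members rose and 4 fell, and 9182 of all tested genes passed against 9322. Deviations of same-numbered libraries correlated at -0.132 to 0.0327, and 1 of 8 libraries correlated best with its own number. Leaving out 1 library gave 8921 to 9656 genes, 5 risers and 4 or 5 fallers among the members. Lengths from merged exons moved the mean ratio of Odc1 plus Azin1 to the antizymes to 3.44 in parental and 7.42 in knockout cells. The mean of Srm to Sms moved to 4.65 and 4.79, and that of Smox to Paox to 7.65 and 39.4, since the lengths differ. The groups of the first and last ratio stayed apart in the same order. Those of Srm to Sms overlapped with either length, so no order is set for them. Among the listed genes, the calls of Slc12a9, Cav1 and Mat2b, all with adjusted p between 0.02 and 0.05, were lost under some alternatives. The counts cover whole genes, so transcript variants, translation and protein were not measured.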
